A study of Mus musculus with 2 samples.

Results

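Klf2, Klf4, Nos3, Thbd, Edn1, Ednra, Ednrb, Ece1, Gucy1a1 and Gucy1b1 encode flow-induced transcription factors (Klf2, Klf4), an anticoagulant receptor (Thbd), nitric oxide enzymes (Nos3, Gucy1a1, Gucy1b1) and endothelin components (Edn1, Ednra, Ednrb, Ece1) of the vessel wall. They were chosen by gene symbol as 10 of the 32574 genes counted in single-cell RNA sequencing of mouse adductor muscle. The groups were Apoa1bp-/- mice and WT control littermates, with 4 mice of each genotype operated and muscle from every animal collected 7 days after ligation of the femoral artery, which closes the main artery of the leg. The deleted gene, listed as Naxe in the files, encodes AIBP, which was named for its binding to apolipoprotein A-I and is an epimerase in the repair of damaged NAD(P)H. No age, sex, driver or cell type restriction of the deletion is given in the labels, and both groups carry the ligation, so no value describes uninjured muscle. Each genotype had 1 droplet library, and the labels do not tell whether it holds cells of all 4 mice.

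The Apoa1bp-/- library held 9392 cell barcodes and 80444279 UMIs (unique molecular identifiers, each counting 1 captured transcript), and the WT library held 14035 barcodes and 80954991 UMIs. After removal of sparse barcodes, barcodes rich in mitochondrial RNA and doublets, 8682 Apoa1bp-/- cells with a median of 6624.5 UMIs and 12351 WT cells with a median of 4169 UMIs remained, and 28 barcode sequences occurred among the kept cells of both libraries. Cells were gated into 13 classes by marker genes that include none of the 10 genes, and endothelial-gated cells had on average 8.56 of the 10 endothelial markers in the Apoa1bp-/- and 7.29 in the WT library. Naxe (ENSMUSG00000028070) had 0 UMIs in the kept Apoa1bp-/- cells, against 3347 UMIs or 49.98 CPM (UMIs of the gene per 1e6 UMIs of the cells counted) in the kept WT cells. Since each genotype is a single library, the spread between animals is unknown, and differences were neither tested nor given a p-value. Parentheses hold exact 95% intervals for the error of counting UMIs or cells and nothing else, and ratios are Apoa1bp-/- over WT.

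In endothelial cells, steady laminar flow acts through a kinase cascade and MEF2 factors to raise the transcription factors KLF2 and KLF4, which in turn favour the nitric oxide synthase gene Nos3 and the anticoagulant receptor gene Thbd and restrain Edn1. Nitric oxide diffuses to the surrounding smooth muscle cells and pericytes, where it activates soluble guanylate cyclase, a heterodimer of the products of Gucy1a1 and Gucy1b1, and the cGMP formed relaxes the vessel. The precursor of endothelin-1, the product of Edn1, is cut to the active peptide by the protease ECE1. Endothelin-1 contracts mural cells through the receptor encoded by Ednra, while the receptor encoded by Ednrb also clears the peptide and, on endothelium, stimulates nitric oxide release.

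Upstream windows of 250 bases, from the RefSeq promoter table on build GRCm38.p6, were found for 8 of the 10 genes. Nos3 and Thbd had none there. The windows of Klf2, Klf4 and Edn1 are shown because MEF2 factors are known to act on the flow response of Klf2, and KLF factors bind CACCC boxes. In the first sequence capitals mark the MEF2 core, searched as CTA and TAG with any 4 bases between them, which the second lacks, and in the third they mark CACCC on either strand, so that the reverse complement reads GGGTG. All motifs were searched on both strands, the windows read 5′ to 3′ on the gene's strand, and the last base lies next to the annotated start.
Klf2, chr8:72318812-72319061, plus strand: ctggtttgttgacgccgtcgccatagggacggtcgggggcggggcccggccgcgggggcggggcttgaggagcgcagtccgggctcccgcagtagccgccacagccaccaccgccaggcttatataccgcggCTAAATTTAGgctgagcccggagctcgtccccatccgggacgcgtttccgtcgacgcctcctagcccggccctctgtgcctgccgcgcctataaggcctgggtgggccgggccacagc
Klf4, chr4:55532476-55532725, minus strand: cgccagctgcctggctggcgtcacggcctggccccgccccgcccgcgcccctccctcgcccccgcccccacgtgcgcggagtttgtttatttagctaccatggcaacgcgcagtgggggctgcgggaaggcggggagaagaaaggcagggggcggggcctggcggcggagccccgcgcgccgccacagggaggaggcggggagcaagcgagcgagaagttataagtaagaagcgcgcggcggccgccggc
Edn1, chr13:42301226-42301475, plus strand: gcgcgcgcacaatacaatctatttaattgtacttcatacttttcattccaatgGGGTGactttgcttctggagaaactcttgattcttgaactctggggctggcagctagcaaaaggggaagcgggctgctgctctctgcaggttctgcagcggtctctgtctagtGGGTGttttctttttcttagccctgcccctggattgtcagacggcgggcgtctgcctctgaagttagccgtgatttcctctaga
The MEF2 core of Klf2 began 118 bases before the start, and none of the other 11 windows of these genes held that motif, which was present in 3.202% of the 32851 windows of this length in the table. In Edn1 the CACCC motif occurred at 197 and 84 bases before the start. CACCC was present in 52.0% of all windows, so a match to it is common. The Edn1 window held no match to the letters searched for an AP-1 element (TGANTCA), and none to those for a TATA box (TATAAA) or for a GATA element (TTATCT). Matches to these letters were present in 6.75%, 12.4% and 9.99% of all windows, and no motif overlapped another in the windows shown. These matches describe letters and do not locate sites that are used in this muscle.

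The 10 genes divided into an endothelial set, a mural set and genes shared with stromal and immune cells. Nos3 (ENSMUSG00000028978) was close to endothelium-restricted, with 58.1 CPM (51.2 to 65.7) in endothelial-gated Apoa1bp-/- cells and 86.9 CPM (74.4 to 101) in WT cells. The next of the 11 classes compared was below 6 CPM in each library. In fibroblast-gated cells Nos3 was at 0.444 CPM in Apoa1bp-/- and 0.578 CPM in WT cells, so the endothelial level was 131 times (62.6 to 329) that of fibroblasts in the Apoa1bp-/- library and 150 times (83.8 to 296) in the WT library. After each cell was thinned to 1000 UMIs, 8.03% of Apoa1bp-/- and 9.29% of WT endothelial-gated cells had a Nos3 UMI. The shares were 0.0748% of Apoa1bp-/- and 0.0894% of WT fibroblast-gated cells, and 0.119% of Apoa1bp-/- and 0.157% of WT macrophage-gated cells. In satellite-gated cells they were 0.101% in Apoa1bp-/- and 0.275% in WT. Free RNA as a source of Nos3 UMIs outside endothelium was not tested. Before thinning the endothelial shares were 42.0% in the Apoa1bp-/- library, from a median depth of 8242.5 UMIs, and 30.5% in the WT library, from 2708 UMIs.

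Ece1 (ENSMUSG00000057530) and Klf2 (ENSMUSG00000055148) were also high in endothelium, but with broader reach. Ece1 was at 233 CPM (219 to 248) in Apoa1bp-/- and 310 CPM (286 to 335) in WT endothelial-gated cells, above every other class in each library. Dendritic cells (96.9 CPM in Apoa1bp-/- and 85.6 CPM in WT cells) and mural cells (68.4 CPM in Apoa1bp-/- and 86.4 CPM in WT cells) followed with overlapping intervals. Klf2 reached 613 CPM (590 to 637) in Apoa1bp-/- and 678 CPM (642 to 715) in WT endothelial-gated cells. Neutrophil-gated cells were as rich in this transcript, with 794 CPM (705 to 892) in the Apoa1bp-/- library, above endothelium, and 515 CPM (377 to 687) in the WT library, where the intervals of both classes overlapped. Monocytes, T cells and NK cells lay between 157 and 299 CPM over both libraries. Satellite-gated cells, the muscle stem cells and myoblasts, were lowest, at 8.45 CPM in Apoa1bp-/- and 13.7 CPM in WT cells.

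Klf4 (ENSMUSG00000003032) was shared by monocytes, fibroblasts and endothelium. In the Apoa1bp-/- library monocytes were at 156, fibroblasts at 135 and endothelium at 134 CPM with overlapping intervals, while in the WT library fibroblasts led with 334 CPM (326 to 342), ahead of endothelium with 231 CPM (210 to 253). Thbd (ENSMUSG00000074743), whose product thrombomodulin turns thrombin from a clotting to an anticoagulant enzyme, was at 43.3, 36.3 and 23.3 CPM in Apoa1bp-/- endothelial, monocyte and fibroblast cells. In the WT library it was at 71.3, 64.4 and 58.3 CPM in endothelial, fibroblast and mural cells, whose intervals overlapped.

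Edn1 (ENSMUSG00000021367) was detected mainly in endothelium and fibroblasts. It was at 36.2 CPM (30.8 to 42.3) in Apoa1bp-/- and 51.7 CPM (42.2 to 62.7) in WT endothelial-gated cells, and at 16.7 CPM (14.7 to 18.8) in Apoa1bp-/- and 50.2 CPM (47.2 to 53.3) in WT fibroblast-gated cells. Mural-gated cells had 0 Edn1 UMIs in either library, which allows up to 3.04 CPM in Apoa1bp-/- and 7.97 CPM in WT cells.

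**Figure D1:**
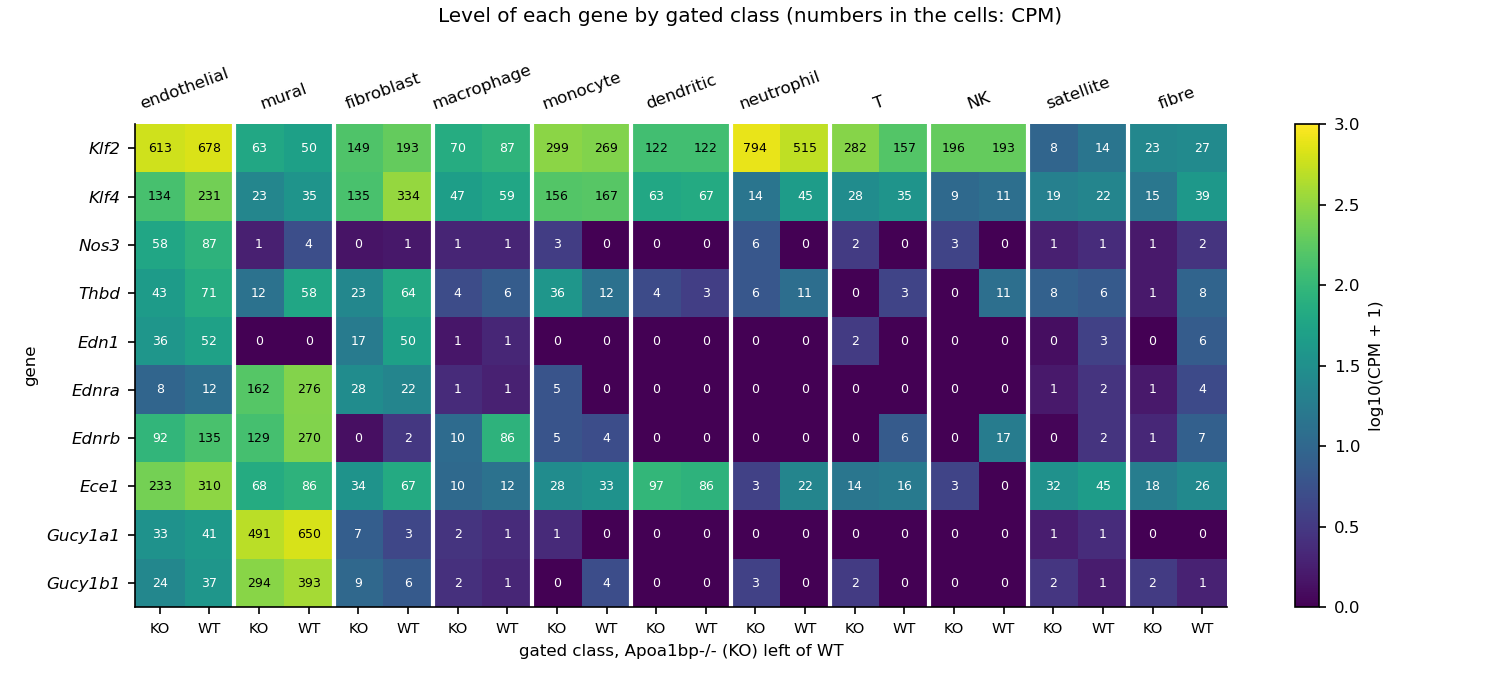
Level of each of the 10 genes in the 11 gated classes with at least 50 cells in each library, as CPM of the class total, coloured on a log10(CPM + 1) scale, with the Apoa1bp-/- (KO) column left of the WT column in each class. Nos3 is near 0 outside endothelium, Gucy1a1 and Gucy1b1 are highest in mural cells, and Klf2 is high in both endothelial and neutrophil cells.

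Both endothelin receptors and both guanylate cyclase subunits had their highest level among the 11 classes in mural-gated cells, the pericytes and smooth muscle cells of the vessel wall. Ednra (ENSMUSG00000031616) was at 162 CPM (140 to 186) in Apoa1bp-/- and 276 CPM (231 to 329) in WT mural cells, followed by fibroblasts at 27.6 CPM in Apoa1bp-/- and 22.4 CPM in WT cells. Gucy1a1 (ENSMUSG00000033910) was at 491 CPM (452 to 532) in Apoa1bp-/- and 650 CPM (579 to 728) in WT mural cells, 15.1 and 15.8 times the endothelial level of the same library. Gucy1b1 (ENSMUSG00000028005) was at 294 CPM (264 to 326) in Apoa1bp-/- and 393 CPM (338 to 455) in WT mural cells, or 12.4 and 10.6 times the endothelial level. Ednrb (ENSMUSG00000022122) had a wider spread, with 129 CPM (109 to 150) in Apoa1bp-/- and 270 CPM (225 to 322) in WT mural cells and 92.3 CPM in Apoa1bp-/- and 135 CPM in WT endothelium. Macrophage-gated cells were at 10.1 CPM (8.95 to 11.4) in the Apoa1bp-/- and 85.8 CPM (82.5 to 89.2) in the WT library. Schwann-gated cells fell outside the 11 classes, with 45 in the WT library. Their Ednrb level was 336 CPM (282 to 397) in Apoa1bp-/- cells, above that of mural cells, and 171 CPM (101 to 270) in WT cells.

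Before thinning, 135 of 203 Apoa1bp-/- and 84 of 168 WT mural-gated cells had UMIs of both Gucy1a1 and Gucy1b1. Their median depths were 4788 UMIs in Apoa1bp-/- and 2107.5 UMIs in WT. With 1000 UMIs per cell, 11.2% of 187 Apoa1bp-/- and 18.9% of 122 WT cells had both, and 59.4% of Apoa1bp-/- and 59.8% of WT cells had at least 1 of them. At this depth Gucy1a1 was read in 43.9% of Apoa1bp-/- and 45.1% of WT cells, and Gucy1b1 in 26.7% and 33.6%. Whether the subunits occurred together beyond these single shares was not tested. Ednra and Ednrb were read together in 16.7% of Apoa1bp-/- and 20.8% of WT mural-gated cells before thinning, and in 1.60% of Apoa1bp-/- and 6.56% of WT thinned cells. In macrophage-gated cells, where the cyclase is not known as a marker, 0.0894% of thinned Apoa1bp-/- and 0.157% of thinned WT cells had a Gucy1a1 UMI, from median depths before thinning of 6724.5 UMIs in Apoa1bp-/- and 4317 UMIs in WT cells. A single Apoa1bp-/- macrophage-gated cell held 15 of the 51 Gucy1a1 UMIs of its class.

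Which class carried most of a transcript depended on class size as well as level. Fibroblasts held 53.2% of all Edn1 UMIs in the Apoa1bp-/- library and 82.8% in the WT library, and endothelium held 32.2% in Apoa1bp-/- and 8.19% in WT. For Ednrb, macrophages held 24.7% of the UMIs in Apoa1bp-/- and 79.2% in WT cells, and endothelium 35.9% in Apoa1bp-/- and 8.55% in WT cells. Nos3 came mostly from endothelium in both libraries, at 71.8% in Apoa1bp-/- and 66.3% in WT cells, and Gucy1a1 from mural cells, at 52.1% in Apoa1bp-/- and 50.3% in WT cells.

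**Figure D2:**
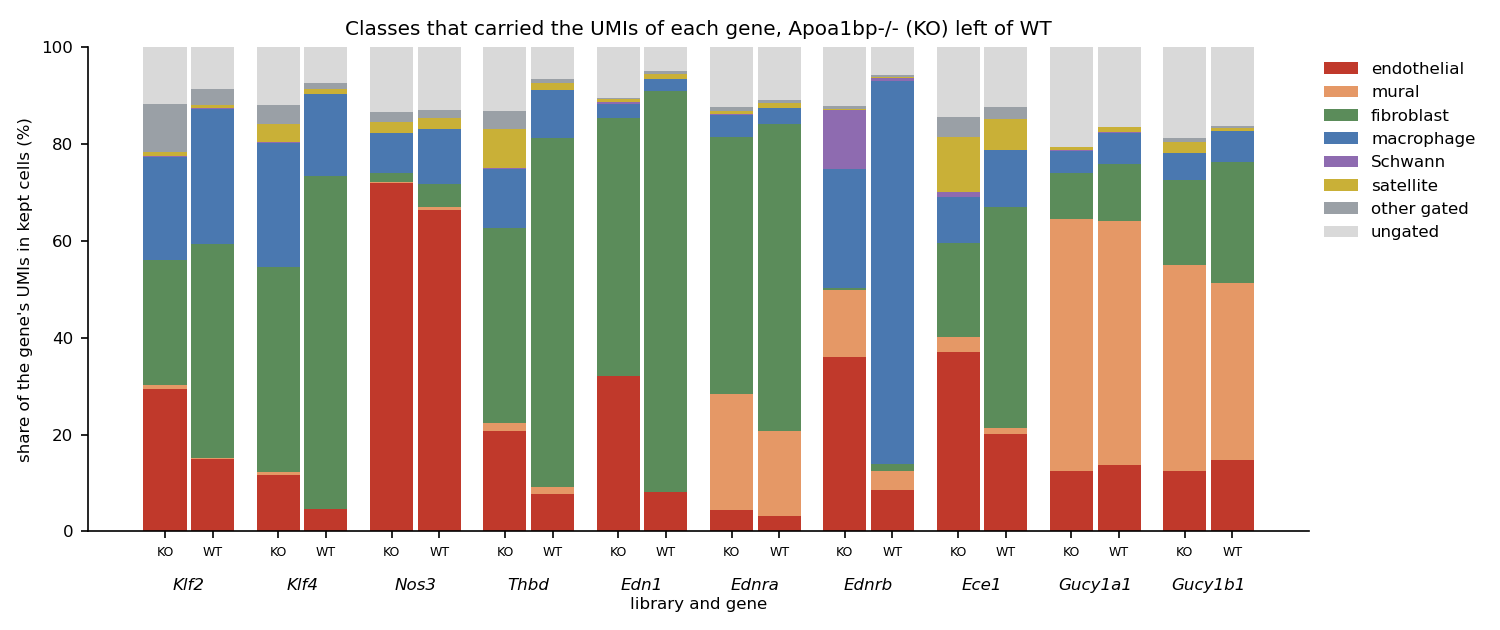
Share of the UMIs of each gene in kept cells that each gated class carried, in percent, with the Apoa1bp-/- (KO) bar left of the WT bar. Edn1 in the Apoa1bp-/- library comes 53.2% from fibroblasts and Ednrb 24.7% from macrophages, against 82.8% and 79.2% in the WT library.

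For the cyclase subunits, totals over all kept cells pointed another way than levels within mural cells. Over all kept cells Gucy1a1 was at 15.6 CPM in the Apoa1bp-/- and 8.93 CPM in the WT library (ratio 1.74, 1.58 to 1.93), and Gucy1b1 at 11.4 CPM in Apoa1bp-/- and 7.47 CPM in WT cells (ratio 1.53, 1.36 to 1.71). Within mural-gated cells both ratios were below 1, at 0.755 and 0.747. Mural-gated cells made up 2.34% (2.03 to 2.68%) of the Apoa1bp-/- and 1.36% (1.16 to 1.58%) of the WT cells. Over all kept cells 4 of 9 measured genes were at least 1.5-fold lower and 2 at least 1.5-fold higher, where 8.66% and 6.02% of all measured genes were.

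The comparison between genotypes was made first in endothelial-gated cells, 376 in the Apoa1bp-/- and 383 in the WT library. All 10 genes had a ratio below 1, and for 8 of them the whole interval lay below 1. Klf4, Thbd and Gucy1b1 were at least 1.5-fold lower in the Apoa1bp-/- library, and none was 1.5-fold higher. A gene counted as measured with at least 10 CPM in either library and at least 20 UMIs over both. Of the 8751 measured genes of this class, 15.8% were at least 1.5-fold lower and 6.57% at least 1.5-fold higher, and 62.0% had a ratio below 1. The median log2 ratio was -0.53 over the 10 genes and -0.15 over all measured genes.

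The flow-induced factors differed in size. Klf4 was at 134 CPM (123 to 145) in Apoa1bp-/- and 231 CPM (210 to 253) in WT endothelial-gated cells, a ratio of 0.580 (0.512 to 0.656). Klf2 differed little, with a ratio of 0.905 (0.847 to 0.966), although single cells reached 60 Klf2 UMIs in the Apoa1bp-/- and 28 in the WT library. Thbd was at 43.3 CPM (37.3 to 49.9) in Apoa1bp-/- and 71.3 CPM (60.1 to 84.1) in WT cells, a ratio of 0.607 (0.486 to 0.760). In each of these genes the Apoa1bp-/- value was the lower, and the intervals of the levels overlapped for none of Klf4, Klf2 and Thbd.

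Nos3 had 255 UMIs in Apoa1bp-/- and 173 UMIs in WT endothelial-gated cells, which gave a ratio of 0.669 (0.549 to 0.816), just short of 1.5-fold. Edn1 was at a ratio of 0.700 (0.543 to 0.906), from 159 Apoa1bp-/- and 103 WT UMIs, so the vasoconstrictor and the vasodilator gene were lower together, with overlapping intervals. Its processing enzyme Ece1 was at 0.751 (0.679 to 0.832), and Ednrb, at 92.3 CPM (83.5 to 102) in Apoa1bp-/- and 135 CPM (119 to 152) in WT cells, at 0.683 (0.584 to 0.7998). Annotated transcripts overlap Nos3, Edn1 and Ednra on the opposite strand (Atg9b and Gm15587, Gm47118, and 4933431K23Rik) and Gucy1a1 on its own strand (Mir7010), and no label states whether reads were counted by strand.

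Of the mural genes read in endothelial-gated cells, Gucy1a1 had 143 Apoa1bp-/- and 82 WT UMIs, Gucy1b1 had 104 and 74, and Ednra 37 and 23. Gucy1b1 was at 23.7 CPM in Apoa1bp-/- and 37.2 CPM in WT cells (ratio 0.637, 0.469 to 0.871), Gucy1a1 at 32.6 CPM in Apoa1bp-/- and 41.2 CPM in WT cells (0.791, 0.599 to 1.05) and Ednra at 8.43 CPM in Apoa1bp-/- and 11.6 CPM in WT cells (0.730, 0.422 to 1.29). The intervals of Gucy1a1 and Ednra held 1. The 10 mural markers summed to 655 CPM in Apoa1bp-/- and 1248 CPM in WT endothelial-gated cells, with 1 marker at 0 in each, and their part in these ratios was not tested. In cells that led other classes by 4 markers, the ratio of Gucy1b1 was 0.292 and that of Gucy1a1 0.460.

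**Figure D3:**
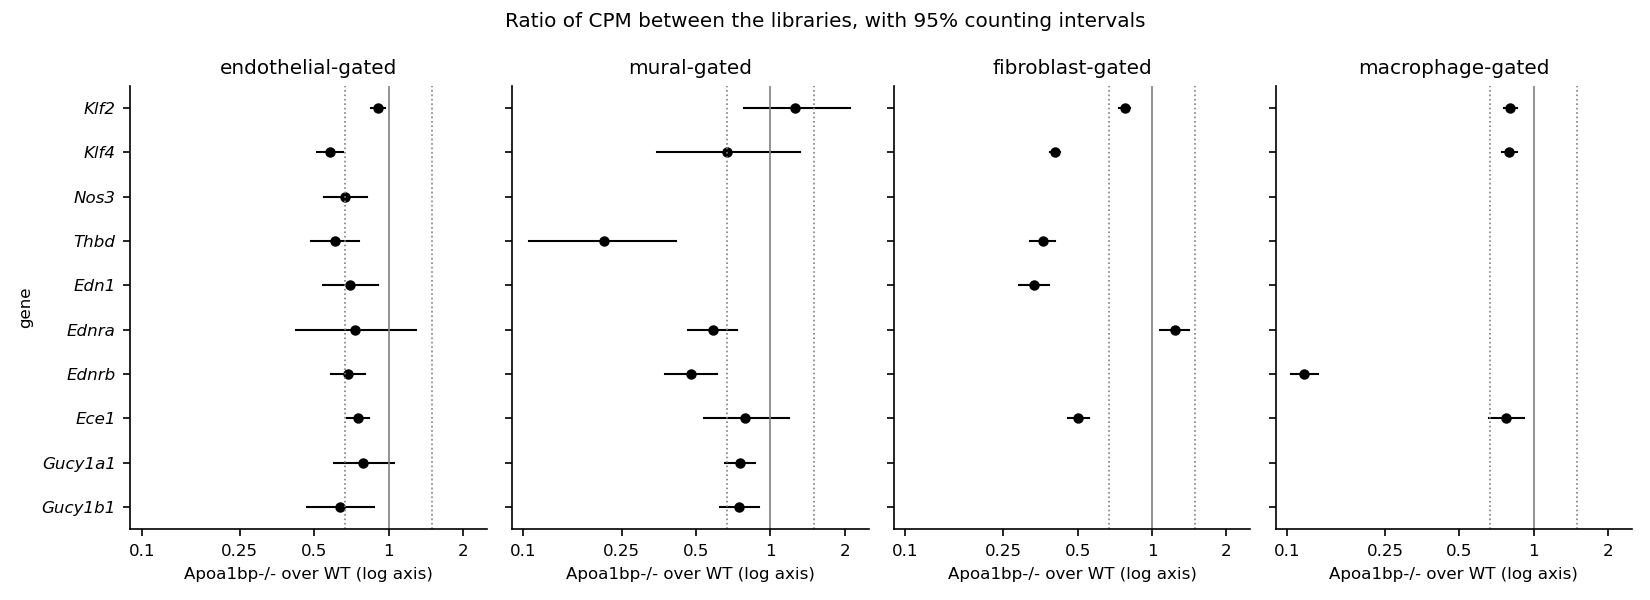
Ratio of CPM, Apoa1bp-/- over WT, for the measured genes in endothelial-, mural-, fibroblast- and macrophage-gated cells on a log axis, with exact 95% counting intervals as bars, the solid line at 1 and dotted lines at 1.5-fold either way. All 10 endothelial ratios lie below 1, and the lowest plotted is Ednrb in macrophages at 0.118.

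Values that moved with the genotype in these cells are given beside the ratios. The median depth was 8242.5 UMIs per Apoa1bp-/- and 2708 UMIs per WT endothelial-gated cell, and the 10 endothelial markers themselves summed to 6983 CPM in Apoa1bp-/- and 7868 CPM in WT cells (ratio 0.888). Macrophage markers summed to 307 CPM in Apoa1bp-/- and 563 CPM in WT cells and satellite cell markers to 127 CPM in Apoa1bp-/- and 45.7 CPM in WT cells. Immediate early and heat shock genes, which tissue digestion can raise as it can Klf2 and Klf4, summed to 3416 CPM in Apoa1bp-/- and 3363 CPM in WT cells (ratio 1.02). This sum joins genes on both sides of 1, from 0.372 for Hspa1a to 1.47 for Nr4a1. Of the 15 genes 7 had a ratio below 1, beside 62.0% of all measured genes. The part of depth and of other cells' RNA in the ratios was not tested. When mitochondrially encoded, ribosomal protein and haemoglobin genes were left out of the total, 13.4% of measured genes were 1.5-fold lower and 8.69% higher, and 3 of the 10 genes were lower and 0 higher.

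Within endothelium, subtypes were gated by their own markers, and most cells were capillary, with 273 Apoa1bp-/- and 284 WT cells. The Apoa1bp-/- library had 29 arterial, 15 venous, 11 tip and 6 lymphatic cells, and the WT library had 26, 10, 18 and 13. In capillary cells all 10 ratios were below 1, 6 with the whole interval below 1, and 3 of the genes were at least 1.5-fold lower and 0 higher, where 16.7% and 7.52% of the 8645 measured genes of the subtype were. Klf2 was at 610 CPM in Apoa1bp-/- and 807 CPM in WT cells (ratio 0.756, 0.702 to 0.814), Klf4 at 121 CPM in Apoa1bp-/- and 253 CPM in WT cells (0.477, 0.412 to 0.553), and Thbd at 42.6 CPM in Apoa1bp-/- and 78.2 CPM in WT cells (0.544, 0.420 to 0.706). Nos3 was at 55.6 CPM in Apoa1bp-/- and 91.1 CPM in WT cells (0.610, 0.483 to 0.772). These 4 ratios were further below 1 than in the whole class. Those of Ece1 (0.812), Ednra (0.835) and Gucy1b1 (0.680, 0.437 to 1.07) were nearer to 1, and the intervals of Ednra and Gucy1b1 held 1.

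In arterial cells the ratio of Klf2 lay on the other side of 1. Their Klf2 level was 1248 CPM (378 UMIs) in the Apoa1bp-/- and 771 CPM (95 UMIs) in the WT library, a ratio of 1.62 (1.29 to 2.05). Klf4 (367 CPM in Apoa1bp-/- and 317 CPM in WT cells) and Thbd (62.8 CPM in Apoa1bp-/- and 40.6 CPM in WT cells) had ratios whose intervals held 1. Edn1 was lower in Apoa1bp-/- arterial cells, at 122 CPM (37 UMIs), against 276 CPM (34 UMIs) in WT arterial cells, a ratio of 0.443 (0.270 to 0.727). Klf2 was also higher in endothelial-gated cells assigned to no subtype, 42 in the Apoa1bp-/- and 32 in the WT library. Its level there was 501 CPM in Apoa1bp-/- and 292 CPM in WT cells (1.71, 1.27 to 2.35). The Klf2 ratio was 0.435 in tip cells, and 0.928 in venous and 0.787 in lymphatic cells with intervals that held 1. The difference between the subtypes was not tested. With arterial and capillary cells weighted equally, the endothelial ratio of Klf2 was 1.18, that of Klf4 0.856 and that of Thbd 0.887. Each was the highest ratio of its gene over 14 alternative settings, and that of Klf2 was below 1 in 13 of them. Equal weights give 29 Apoa1bp-/- and 26 WT arterial cells the weight of 273 and 284 capillary cells. The median log2 ratio of the 10 genes was -0.43 with equal weights and -0.54 with weights by pooled share.

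The subtypes also placed the genes along the vessel tree. Edn1 was read in arterial and venous cells (211 CPM in Apoa1bp-/- and 192 CPM in WT venous cells, from 18 Apoa1bp-/- and 6 WT UMIs). Capillary cells were at 20.8 CPM in Apoa1bp-/- and 30.1 CPM in WT cells. Lymphatic cells had 0 UMIs, which allows up to 56.2 CPM in Apoa1bp-/- and 50.2 CPM in WT cells, more than the capillary levels. Tip cells, the leading cells of new sprouts, were low in Klf2, at 83.2 CPM (13 UMIs) in Apoa1bp-/- and 191 CPM (36 UMIs) in WT cells. They were also low in Klf4, at 19.2 CPM (3.96 to 56.1) in Apoa1bp-/- and 31.9 CPM (11.7 to 69.4) in WT cells. These Klf4 values rest on 3 Apoa1bp-/- and 6 WT UMIs. Lymphatic cells were high in Ece1, at 457 CPM in Apoa1bp-/- and 1021 CPM in WT cells, and in Gucy1b1, at 320 CPM in Apoa1bp-/- and 327 CPM in WT cells, from 21 Apoa1bp-/- and 24 WT UMIs. These last values rest on 6 Apoa1bp-/- and 13 WT cells, 1.60% and 3.39% of the endothelial-gated cells. All endothelial-gated cells held 104 Apoa1bp-/- and 74 WT Gucy1b1 UMIs, and the part of lymphatic cells in the ratio of Gucy1b1 was not tested.

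**Figure D4:**
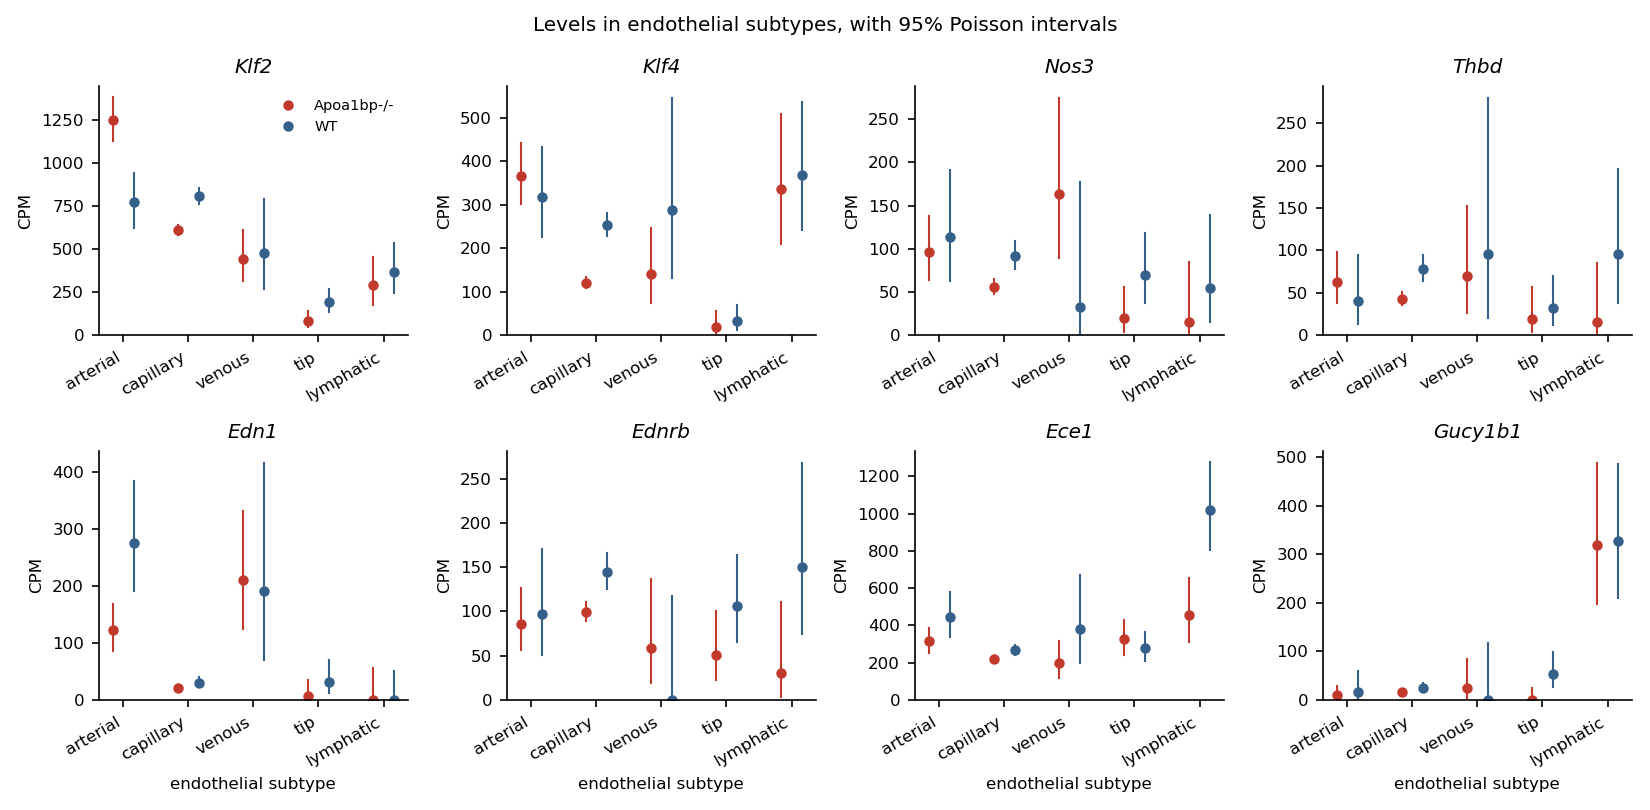
CPM of 8 genes in 5 endothelial subtypes of the Apoa1bp-/- (red) and WT (blue) libraries, with exact 95% Poisson intervals as bars. Klf2 is higher in Apoa1bp-/- arterial cells (1248 CPM, against 771 CPM in WT) and lower in Apoa1bp-/- capillary cells (610 CPM, against 807 CPM in WT), and Edn1 is concentrated in arterial and venous cells.

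In mural-gated cells, 203 in the Apoa1bp-/- and 168 in the WT library, the receivers of both signals were lower in the Apoa1bp-/- library. Ednrb had a ratio of 0.477 (0.374 to 0.608), from 156 Apoa1bp-/- and 125 WT UMIs, and Ednra one of 0.585 (0.466 to 0.736), from 196 Apoa1bp-/- and 128 WT UMIs. The cyclase subunits were lower by less, with ratios of 0.755 (0.656 to 0.870) for Gucy1a1 and 0.747 (0.623 to 0.898) for Gucy1b1. Of 8 measured genes, 3 were at least 1.5-fold lower and 0 higher, where 19.6% and 12.7% of the 8183 measured genes of this class were. The third was Thbd, at 12.4 CPM in Apoa1bp-/- and 58.3 CPM in WT cells from 15 Apoa1bp-/- and 27 WT UMIs (ratio 0.212, 0.105 to 0.413).

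The mural markers summed to 11169 CPM in the Apoa1bp-/- and 15041 CPM in the WT library, a ratio of 0.743, close to that of the cyclase subunits, and whether the receptor ratios differ from it was not tested. As a mean over cells of each cell's CPM, the ratio of Ednrb was 0.711 and that of Ednra 0.712, both short of 1.5-fold. With cells thinned to 1000 UMIs, 1 of 6 measured genes was at least 1.5-fold lower, beside 17.5% of all measured genes, and Thbd was at 0.652. Pericytes, 165 of the Apoa1bp-/- and 143 of the WT cells, had Ednrb at 128 CPM in Apoa1bp-/- and 296 CPM in WT cells (ratio 0.432) and Ednra at 165 CPM in Apoa1bp-/- and 280 CPM in WT cells (0.590). Smooth muscle cells, 30 in Apoa1bp-/- and 20 in WT, had Ednra at 135 CPM in Apoa1bp-/- and 298 CPM in WT cells (0.453, 0.237 to 0.882), Gucy1a1 at 653 CPM in Apoa1bp-/- and 843 CPM in WT cells and Gucy1b1 at 361 CPM in Apoa1bp-/- and 595 CPM in WT cells, so both subunits were present in both kinds of mural cell.

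Fibroblast-gated cells, 1350 in the Apoa1bp-/- and 3430 in the WT library, had low ratios for Edn1, Thbd, Klf4 and Ece1. Edn1 was at 16.7 CPM in Apoa1bp-/- and 50.2 CPM in WT cells (ratio 0.333, 0.289 to 0.381), Thbd at 23.3 CPM in Apoa1bp-/- and 64.4 CPM in WT cells (0.361, 0.321 to 0.406), Klf4 at 135 CPM in Apoa1bp-/- and 334 CPM in WT cells (0.405, 0.386 to 0.425) and Ece1 at 33.9 CPM in Apoa1bp-/- and 67.4 CPM in WT cells (0.503, 0.455 to 0.556). Ednra was the exception, higher in Apoa1bp-/- fibroblasts at 27.6 CPM, against 22.4 CPM in WT cells (1.23, 1.08 to 1.41). Of 6 measured genes 4 were at least 1.5-fold lower and 0 higher, against 12.7% and 7.14% of the 8679 measured genes of the class. Without mitochondrially encoded, ribosomal protein and haemoglobin genes in the total, 7 genes were measured and 1 was higher, beside 8.59% of all measured genes.

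These fibroblasts were a different mix in each library. By marker lists written after the values had been seen, Pi16-type progenitors were 17.8% (15.8 to 19.9%) of Apoa1bp-/- and 36.9% (35.3 to 38.5%) of WT fibroblasts, and activated matrix-forming fibroblasts 49.6% (46.9 to 52.3%) of Apoa1bp-/- and 26.1% (24.6 to 27.6%) of WT cells. Most fibroblast Edn1 UMIs were in the progenitors, 230 of 263 in Apoa1bp-/- and 855 of 1041 in WT cells. Their level was 122 CPM in Apoa1bp-/- and 142 CPM in WT cells (ratio 0.860, 0.740 to 0.996). Activated cells were at 1.31 CPM in Apoa1bp-/- and 5.28 CPM in WT (0.249, 0.126 to 0.459). Interstitial cells, the remaining subset with a marker list, were at 5.86 CPM in Apoa1bp-/- and 15.4 CPM in WT (0.381, 0.180 to 0.733). Thbd followed the same order, at 110 CPM in Apoa1bp-/- and 160 CPM in WT progenitors (0.686, 0.588 to 0.798) and at 5.44 CPM in Apoa1bp-/- and 7.87 CPM in WT activated cells. Klf4 was at 408 CPM in Apoa1bp-/- and 702 CPM in WT progenitors (0.581, 0.537 to 0.627) and at 53.5 CPM in Apoa1bp-/- and 69.0 CPM in WT activated cells.

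Fibroblasts assigned to no subset, 142 in the Apoa1bp-/- and 329 in the WT library, had Edn1 at 5.91 CPM in Apoa1bp-/- and 39.0 CPM in WT cells (0.152, 0.0633 to 0.313). Their ratio was 0.481 (0.313 to 0.722) for Thbd and 1.36 (1.17 to 1.59) for Klf2. With these cells left out, weighting the 3 subsets by their pooled share moved the ratio of Edn1 to 0.801 and that of Thbd to 0.689, both short of 1.5-fold. Klf4 was then at 0.656 and Ece1 at 0.563. The ratio of Klf2, 0.775 (0.736 to 0.815) over all fibroblasts, was 1.01 with these weights, with 94.1 CPM in Apoa1bp-/- and 66.7 CPM in WT activated cells (1.41, 1.27 to 1.57) and 357 CPM in Apoa1bp-/- and 413 CPM in WT progenitors (0.865, 0.794 to 0.943). Gucy1a1 and Gucy1b1 were under the 10 CPM limit in fibroblasts as a whole, Gucy1a1 at 6.85 CPM in Apoa1bp-/- and 3.37 CPM in WT cells and Gucy1b1 at 9.39 CPM in Apoa1bp-/- and 6.02 CPM in WT cells. In interstitial fibroblasts both were measured and higher, Gucy1a1 at 17.6 CPM in Apoa1bp-/- and 5.04 CPM in WT cells (3.49, 1.93 to 6.50) and Gucy1b1 at 25.04 CPM in Apoa1bp-/- and 14.1 CPM in WT cells (1.78, 1.18 to 2.69). Ednra was higher there too, at 29.8 CPM in Apoa1bp-/- and 16.4 CPM in WT cells (1.82, 1.24 to 2.65), so 3 of 8 measured genes were 1.5-fold higher and 2 lower, where 7.53% and 12.4% of the 8881 measured genes of the subset were.

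**Figure D5:**
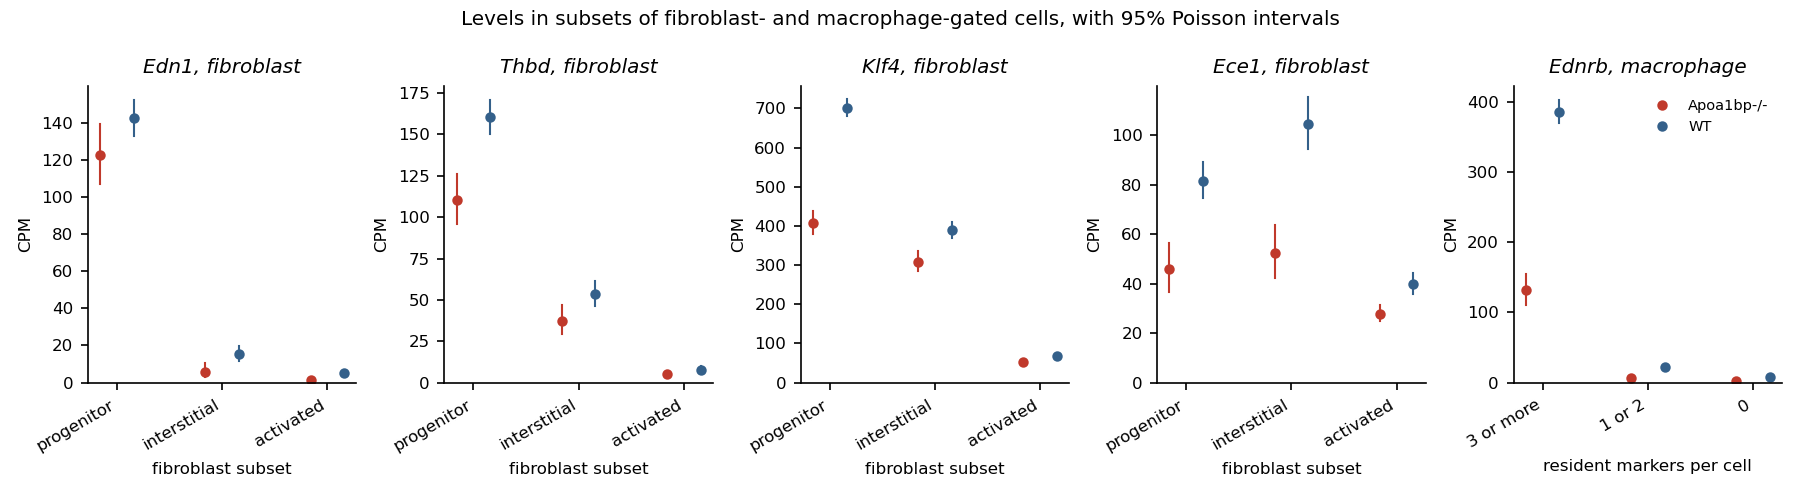
CPM of Edn1, Thbd, Klf4 and Ece1 in 3 subsets of fibroblast-gated cells, and of Ednrb in macrophage-gated cells by number of resident macrophage markers per cell, for the Apoa1bp-/- (red) and WT (blue) libraries with exact 95% Poisson intervals. Edn1 sits in progenitor fibroblasts (122 CPM in Apoa1bp-/- and 142 CPM in WT cells), and Ednrb in macrophages with 3 or more resident markers (132 CPM in Apoa1bp-/- and 385 CPM in WT cells).

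Macrophage-gated cells, 3446 in the Apoa1bp-/- and 5350 in the WT library, had the lowest ratio measured for any of the 10 genes. Ednrb had 279 UMIs in Apoa1bp-/- and 2492 UMIs in WT cells, a ratio of 0.118 (0.104 to 0.133), and after thinning 1.31% (0.954 to 1.76%) of Apoa1bp-/- and 7.45% (6.75 to 8.21%) of WT cells had a UMI of it, against 0.150% of Apoa1bp-/- and 0.238% of WT fibroblast-gated cells. It was the 1 of 4 measured genes that was at least 1.5-fold lower, and 0 were higher, where 7.68% and 2.71% of the 7652 measured genes were. Klf2 (70.3 CPM in Apoa1bp-/- and 87.3 CPM in WT cells, ratio 0.804, 0.758 to 0.854), Klf4 (46.9 CPM in Apoa1bp-/- and 58.8 CPM in WT cells, 0.797, 0.741 to 0.858) and Ece1 (9.59 CPM in Apoa1bp-/- and 12.4 CPM in WT cells, 0.774, 0.658 to 0.910) were lower by a smaller amount.

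Macrophage Ednrb followed the resident macrophage markers Cd163, Lyve1, Fcna, Folr2, Cbr2 and Timd4, a list also written after the values had been seen. Cells with 3 or more of them were 3.42% (2.84 to 4.09%) of Apoa1bp-/- and 17.6% (16.6 to 18.7%) of WT macrophages, and had Ednrb at 132 CPM in Apoa1bp-/- and 385 CPM in WT cells (ratio 0.342, 0.287 to 0.404). Cells with 1 or 2 were at 7.17 CPM in Apoa1bp-/- and 22.0 CPM in WT cells (0.326, 0.261 to 0.405), and cells with none at 2.02 CPM in Apoa1bp-/- and 7.59 CPM in WT cells (0.266, 0.156 to 0.435). Ednrb was lower in the Apoa1bp-/- library in each of the 3 subsets, and weighted by pooled share its ratio was 0.335. For Klf2, resident cells were at 286 CPM in Apoa1bp-/- and 208 CPM in WT cells (1.37, 1.21 to 1.56), and the weighted ratio was 1.15, above 1 where the unweighted one was below it.

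In the other classes few of the genes were measured. Klf2 was higher in Apoa1bp-/- neutrophils (794 CPM in Apoa1bp-/- and 515 CPM in WT cells, ratio 1.54, 1.13 to 2.15) and T cells (282 CPM in Apoa1bp-/- and 157 CPM in WT cells, 1.80, 1.28 to 2.55). In T cells Klf2 is known to maintain quiescence and trafficking. These classes held 173 neutrophils and 137 T cells in the Apoa1bp-/- library and 56 and 145 in the WT library, and 19.2% of the measured neutrophil genes and 14.4% of the measured T cell genes were at least 1.5-fold higher. In monocytes the ratio of Klf2 was 1.11, and in NK cells 1.01, with intervals that held 1. Satellite-gated cells had Klf2 at 8.45 CPM in Apoa1bp-/- and 13.7 CPM in WT cells (0.619, 0.438 to 0.881) and Ece1 at 32.3 CPM in Apoa1bp-/- and 45.1 CPM in WT cells (0.715, 0.596 to 0.860), in a class where 10.2% of measured genes were lower, 7.91% were higher and the immediate early genes summed to 3212 CPM in Apoa1bp-/- and 4982 CPM in WT cells. Fibre-gated cells had Klf4 at 14.6 CPM in Apoa1bp-/- and 38.5 CPM in WT cells (0.379, 0.222 to 0.637), with 20.1% of measured genes lower, and the immediate early genes summed to 1824 CPM in Apoa1bp-/- and 2953 CPM in WT cells, with 9 of 15 lower. Their part in the ratio was not tested. Thbd in monocytes was at 36.3 CPM in Apoa1bp-/- and 12.2 CPM in WT cells from 29 Apoa1bp-/- and 3 WT UMIs (ratio 2.97, 0.920 to 15.2), where 18.4% of measured genes were higher.

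Genes around the 10 in their pathways were read in endothelial-gated cells from lists set up with earlier results of these data known. Of 49 measured list genes, immediate early genes aside, 12 were at least 1.5-fold lower and 0 higher, beside 15.8% and 6.57% of all measured genes of the class, and the lists with 1 lower gene of 14 and 2 of 15 were at or under that share. Under 3 alternative settings 8 to 10 list genes were lower, fewer than 12 in each, and 0 were higher. The number of list genes measured there was not recorded, so no share is set beside these counts. Upstream of the KLF factors, 1 of 14 measured genes was lower: Gnaq, a G protein subunit of the flow response, at 87.7 CPM in Apoa1bp-/- and 137 CPM in WT cells (ratio 0.642, 0.548 to 0.753). The kinase gene Map3k3 (0.690), the junction gene Heg1 (0.686), the cerebral cavernous malformation gene Krit1 (0.680) and Mef2c (0.794) had intervals below 1 without reaching 1.5-fold, and the list's median log2 ratio was -0.47. Of 5 measured other flow-responsive genes, 2 were lower: the water channel gene Aqp1 at 618 CPM in Apoa1bp-/- and 1414 CPM in WT cells (0.437, 0.414 to 0.461) and the sphingosine-1-phosphate receptor gene S1pr1 at 505 CPM in Apoa1bp-/- and 858 CPM in WT cells (0.589, 0.552 to 0.627). Tek was at 0.780 and Smad7 at 0.754.

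The nitric oxide supply genes had a median log2 ratio of -0.06, above the -0.15 of all measured genes, and 2 of 15 were lower: Nos2, the inducible synthase, at 21.9 CPM in Apoa1bp-/- and 40.2 CPM in WT cells (0.544, 0.400 to 0.742), and the arginine transporter gene Slc7a1 at 15.5 CPM in Apoa1bp-/- and 27.6 CPM in WT cells (0.561, 0.387 to 0.815). Gch1, which encodes the enzyme that makes the cofactor of Nos3, had a ratio of 1.22 (0.901 to 1.68), and Cav1, whose product holds the synthase inactive in caveolae, one of 0.710 (0.689 to 0.731). In cGMP signalling 3 of 8 measured genes were lower, namely Pde3a (0.438), Irag1 (0.518) and Mylk (0.608), with Npr1 at 0.670 and Vasp at 0.933 and a median of -0.48.

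Among genes of clotting control, to which Thbd is closest in role, the plasminogen activator gene Plat had a ratio of 0.588, Vwf, which encodes a platelet-binding protein, was at 62.4 CPM in Apoa1bp-/- and 105 CPM in WT cells (0.595, 0.495 to 0.715) and F2r, the thrombin receptor gene, had a ratio of 0.657. Tfpi, which encodes an inhibitor of the start of clotting, at 1.25, and the protein C pathway genes Procr at 0.881 and Pros1 at 0.847 had intervals that held 1. No other endothelin system gene was measured. Edn3 had 22 UMIs in 12 of the Apoa1bp-/- endothelial-gated cells, with at most 5 in 1 cell, and 0 in WT cells, and at 5.01 CPM it was under the 10 CPM limit. Among 15 immediate early and heat shock genes, the heat shock genes Hspa1a (0.372) and Hspa1b (0.373) were lower, Nr4a1 was at 1.47, Jund at 0.977 and Atf3 at 0.699, and the list's median was 0.08.

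Genes with the most similar pattern were ranked by Pearson's r of log2(CPM + 1) over 22 points, 11 classes in each library, among 10789 genes. The points share their library and its depth, and r is a description. Nos3 was most like Unc13b (0.945), Chga (0.932) and Erg (0.932), and Edn1 most like Tek (0.892), Fmo2 (0.889) and Galnt15 (0.886). For the mural genes, Olfr558 (0.977) and Hoxb2 (0.971) were among the genes most like Gucy1a1, Gucy1b1 was most like Higd1b (0.960) and Kcnj8 (0.958), which are mural gate markers, and Tbx2 (0.955), and Ednra most like Slc6a9 (0.971), Avpr1a (0.962) and Kcne4 (0.961). Both cyclase subunits correlated with each other at 0.947 and with Ednra at 0.918 and 0.876.

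Among the genes shared between classes, Klf2 was most like Prr13 (0.909), Gm20559 (0.906) and Klf6 (0.904), and its r with Klf4 was 0.390. Klf4 was most like Ace (0.806), a monocyte gate marker, St3gal1 (0.795) and Rrbp1 (0.782). Thbd was most like Tmem165 (0.834), Morf4l1 (0.825) and Dnpep (0.822), Ednrb most like Pcp4l1 (0.862), Angpt2 (0.839) and Aplp2 (0.838), and Ece1 most like Spop (0.860), Sh3bp4 (0.849) and Arhgap5 (0.848).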

How the data were processed

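Adductor muscle of Apoa1bp-/- and WT mice was digested with collagenase D and made into droplet libraries, per the labels' protocols. The deposited matrices give, for each gene and barcode, unnormalized UMI counts that the authors made with Cell Ranger, version 5.0.0 per the file headers and 2.1.1 per the submitters' processing notes. Which version applies is open, and neither build nor annotation is named, so coordinates are those of the promoter table alone.

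Barcodes with under 200 genes (31 Apoa1bp-/-, 49 WT) or over 10% mitochondrial UMIs (211 and 156) were removed, as were Scrublet doublets (482, 5.26% of barcodes left, and 1486, 10.7%, against expected shares of 7.51% and 11.2% at 0.8% per 1000 barcodes). In all, 43 barcodes occurred in both libraries before filtering. A cell joined the class with the most of its 10 markers, at least 3, leading unrelated classes by 2. Subtypes needed 2 markers. Counts summed per class gave CPM with exact Poisson intervals, conditional intervals for ratios and Clopper-Pearson intervals for shares. Classes under 50 cells in either library (B, Schwann) entered no comparison. Code was tested on simulated counts. The 10 genes and the lists were chosen with earlier results of these data known. Fibroblast and macrophage subsets and alternatives were chosen after seeing the data. Named genes were the 10, Naxe, up to 4 measured genes per list with the largest log2 ratio plus the one with most UMIs, and the 3 most similar genes. For 2 genes under this rule the results are not reported here. Python 3.11.15, numpy 2.4.6, scipy 1.17.1, pandas 2.3.3, scanpy 1.11.5, anndata 0.12.19 and matplotlib 3.10.9 were used.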

Additional observations from a re-analysis of the deposited data

Results flagged for a closer look

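Klf2 differed in opposite directions between classes. Its ratio was 1.54 in neutrophil-gated and 1.80 in T-gated cells, and 0.619 in satellite-gated cells, each at least 1.5-fold from 1. Thbd did so too, with ratios of 2.97 in monocyte-gated cells (from 29 Apoa1bp-/- and 3 WT UMIs, interval holding 1), and 0.607 in endothelial-gated, 0.212 in mural-gated and 0.361 in fibroblast-gated cells. With 1 library per genotype these differences between classes were not tested.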

How the results depend on the processing

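No paired analysis was possible because each genotype has 1 library, and no replicate could be left out. Under 14 alternatives in endothelial-gated cells, 8 to 10 of the genes were measured (8 with thinned cells). Of these, 3 to 5 were 1.5-fold lower, 0 higher and 8 to 10 below 1. Over the same alternatives 13.4% to 24.5% of all measured genes were lower and 5.50% to 20.1% higher. Where the gate led by 4 markers, 5 of 9 measured genes were lower, beside 16.1% of all measured genes. In mural cells, 1 gene was 1.5-fold higher with gating after thinning and with thinned cells (Klf2, 1.85 and 1.52). Of all measured genes 10.8% and 14.4% were higher in these settings. With thinned cells 1 of 6 measured genes was 1.5-fold lower, beside 17.5% of all measured genes, and 4 were below 1. In fibroblasts, 1 gene was 1.5-fold higher with gating after thinning, thinned cells, totals without mitochondrial, ribosomal and haemoglobin genes and both subset weights, and 2 with the mean over cells. Of all measured genes 4.07% to 9.32% were higher in these settings. Both weights left 2 of 7 measured genes lower, beside 5.98% of all measured genes with equal and 5.84% with pooled weights. The fibroblast median log2 ratio, -1.15, was -0.83 with gating after thinning, -0.95 without those genes, -0.33 with equal and -0.32 with pooled weights. In macrophages, keeping doublets gave 3 of 4 measured genes lower, beside 9.69% of all measured genes, and a median of -0.61, against -0.35. The causes were not tested. No called ratio of endothelial-, mural-, fibroblast- or macrophage-gated cells changed direction. Ratios of the other classes and of the subtypes and subsets were not put through alternatives. Single ratios ran from 0.636 to 0.789 for Nos3, 0.467 to 0.832 for Edn1, 0.471 to 0.856 for Klf4, 0.363 to 0.887 for Thbd (0.363 with thinned cells) 0.706 to 1.18 for Klf2, 0.618 to 0.788 for Ednrb, 0.737 to 0.844 for Ece1, 0.460 to 0.895 for Gucy1a1, 0.224 to 0.839 for Ednra and 0.206 to 0.732 for Gucy1b1 in endothelium, the last 2 lowest with thinned cells. The arterial, venous, tip, lymphatic and smooth muscle values rest on 6 to 30 cells a library.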

Other observations

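Schwann-gated cells, 103 in the Apoa1bp-/- and 45 in the WT library, were too few in WT for a comparison, but they were rich in Ednrb, a receptor of the neural crest lineage that gives rise to Schwann cells. Ednrb was at 336 CPM (282 to 397) from 137 UMIs in Apoa1bp-/- and 171 CPM (101 to 270) from 18 UMIs in WT Schwann-gated cells. These cells carried 12.1% of the Ednrb UMIs of the Apoa1bp-/- library and 0.572% of those of the WT library. B-gated cells, 56 in the Apoa1bp-/- and 27 in the WT library, had Klf2 at 589 CPM (476 to 720) in Apoa1bp-/- and 530 CPM (332 to 802) in WT cells, a level close to that of endothelium in each library.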
